A study of Mus musculus with 16 samples.

Results

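Of 16 bulk RNA-seq libraries from mouse embryonic heart, 3 were set apart by a low share of mitochondrial ribosomal RNA. The share is the counts of mt-Rnr1 plus mt-Rnr2, the small and large ribosomal RNAs encoded by the mitochondrial genome, over all counts of the library. The libraries were chosen by this measured share alone: the rule took those under 61%, which were WT 4, CreERT2/+ 3 and CreERT2/del 3. All hearts were taken at E10.5, in mid-gestation, and each of 4 genotypes at Tbx5, a T-box transcription factor of the developing heart, had 4 libraries: wild type (WT), del/+, CreERT2/+ and CreERT2/del. The last 3 carry 1 or both of a pair of changed Tbx5 alleles, called del and CreERT2. No agent or other allele is named in the labels, and it is not stated there whether each library came from a separate embryo or from pooled hearts, so p-values cover only the spread among the libraries at hand. Each low library was set against the other 3 of its own genotype, which gave 3 low and 9 other libraries. The 4 del/+ libraries held no low member and served as a further reference.

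Mitochondrial ribosomal RNA is transcribed inside the mitochondrion and builds the ribosomes that translate the proteins encoded by the mitochondrial genome. Cytosolic ribosomal proteins, by contrast, are encoded in the nucleus by short, highly expressed genes whose messages carry a terminal oligopyrimidine tract. In total RNA the ribosomal RNAs outweigh messenger RNA, so their share in a library depends on how the RNA was selected and primed as well as on the tissue. The heart is rich in mitochondria. Long genes, such as those of large chromatin regulators, give long messages with many exons, and nuclear-retained RNAs such as Malat1 and Neat1 stay out of the cytoplasm.

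The share that chose the libraries is given as a description. In WT the mitochondrial rRNA share was 67.9%, 69.3% and 68.9% in replicates 1 to 3 and 60.6% in replicate 4. In CreERT2/+ it was 78.3%, 67.2% and 77.3% in replicates 1, 2 and 4 and 42.3% in replicate 3. In CreERT2/del it was 66.9%, 74.9% and 62.3% in replicates 1, 2 and 4 and 53.6% in replicate 3. The del/+ libraries lay between 66.5% and 71.3%. WT 4 was just inside the threshold and CreERT2/del 4, at 62.3%, just outside it, while CreERT2/+ 3 was far below every other library. Both rule genes contributed: mt-Rnr2 made up 31.9% to 41.0% of counts in the low libraries and 46.5% to 57.4% in the other 9, and mt-Rnr1 10.48% to 19.6% against 15.4% to 22.9%.

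**Figure D1:**
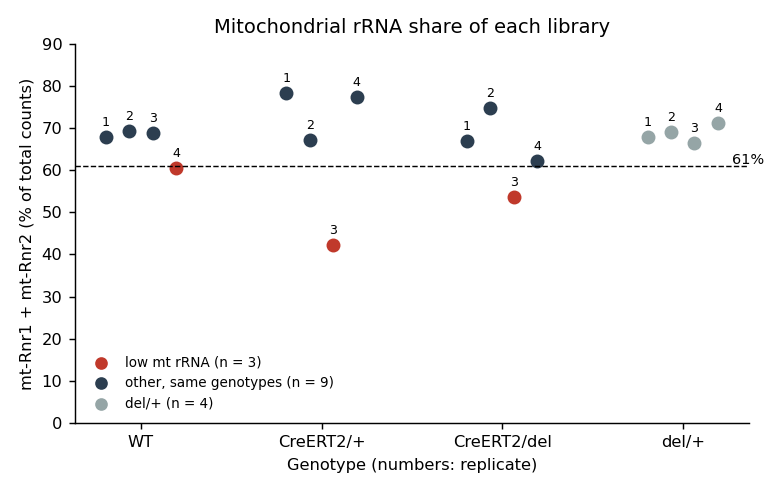
Share of mt-Rnr1 plus mt-Rnr2 in all counts (y axis, percent) for each library by genotype (x axis), with the replicate number at each point. The 3 low libraries lie at 42.3% to 60.6%, under the dashed line at 61%, and the other 9 of the same genotypes at 62.3% to 78.3%.

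Total counts were 21436305 to 36185971 in the low libraries and 22455265 to 42731841 in the other 9, and CreERT2/+ 3 had the fewest of all 16. The counts left outside mitochondrial rRNA were 10771139 to 16796193 against 6611755 to 13113302. Genes with at least 10 counts numbered 14248 to 15302 in the low libraries and 12766 to 14059 in the others, with no overlap; depth outside mitochondrial rRNA moved with this, and its part was not tested. No pair of libraries of 1 genotype agreed within sampling noise. Tbx5 itself was read at 42.8 to 80.7 CPM (read counts brought to the same library total) in the 9 other libraries and at 67.6, 120.1 and 73.5 CPM in WT 4, CreERT2/+ 3 and CreERT2/del 3 (log2 difference 0.45 ± 0.18 SE, edgeR adjusted p = 0.066). The table has 1 count per gene, so it does not show whether the altered part of Tbx5 was read. Sex did not follow the split as a whole. Xist, the RNA of the inactive X chromosome, was at 1882 CPM in CreERT2/+ 3. The Y-linked gene Kdm5d was at 109.7 and 85.7 CPM in WT 4 and CreERT2/del 3. Within CreERT2/del, Xist was at 4.88 CPM in the low library and at 615.6, 95.7 and 567.9 CPM in replicates 1, 2 and 4. CreERT2/del 2 also had Kdm5d at 60.9 CPM, so both sex-linked genes were read there.

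Outside the rule genes, the low libraries differed from the others across a large part of the transcriptome. With genotype as a block, edgeR's quasi-likelihood test called 2396 of 15706 genes (15.3%) higher and 2295 (14.6%) lower in the low libraries, at a Benjamini-Hochberg adjusted p under 0.05; both directions together made 29.9%. "Higher" and "lower" are relative to the other genes of a library, because the counts were scaled by trimmed mean of M values (TMM). Without that factor the calls became 4543 higher and 876 lower, and the median difference of all genes moved from 0.00 to 0.37 on the log2 scale. The libraries were split by a measured value, so these p-values describe how genes follow the split and not the effect of a condition. CreERT2/+ 3 weighed heavily: without it 1282 genes were higher and 992 lower.

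The same genes moved in libraries that had no part in calling them. When genes were called from WT and CreERT2/+ alone, 96.8% of 1912 higher genes were above the mean of the other 3 in CreERT2/del 3, and 96.5% of 1848 lower genes were below it; over all genes, 50.2% were above. With CreERT2/+ held out, 95.5% of 1482 higher genes and 97.5% of 1297 lower genes had the same direction in CreERT2/+ 3, beside 51.5% above over all genes. With WT held out, the shares in WT 4 were 96.2% of 1641 and 94.8% of 1492, beside 51.8%. The median size in the held-out library was largest in CreERT2/+ 3 (0.87 for higher and -1.22 for lower genes) and smallest in CreERT2/del 3 (0.64 and -0.48). Each genotype held a single low library, so a difference among the 3 genotypes cannot be told apart from a difference among single libraries. The size did vary: the median of cytosolic ribosomal proteins was -1.01 in WT 4, -1.86 in CreERT2/+ 3 and -0.51 in CreERT2/del 3.

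Gene length ordered the differences. The tested genes were divided by exonic length into 5 bins of equal number. The median log2 difference rose from -0.49 in the shortest bin (up to 1660 bp) through -0.25, -0.03 and 0.15 to 0.41 in the longest (6037 bp and over). In the shortest bin 3.5% of genes were called higher and 29% lower. In the longest bin 38.4% were called higher and 3.06% lower, beside 15.3% and 14.6% over all genes. All 3 low libraries had this order, with shortest and longest medians of -0.36 and 0.44 in WT 4, -0.53 and 0.48 in CreERT2/+ 3, and -0.27 and 0.31 in CreERT2/del 3.

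**Figure D2:**
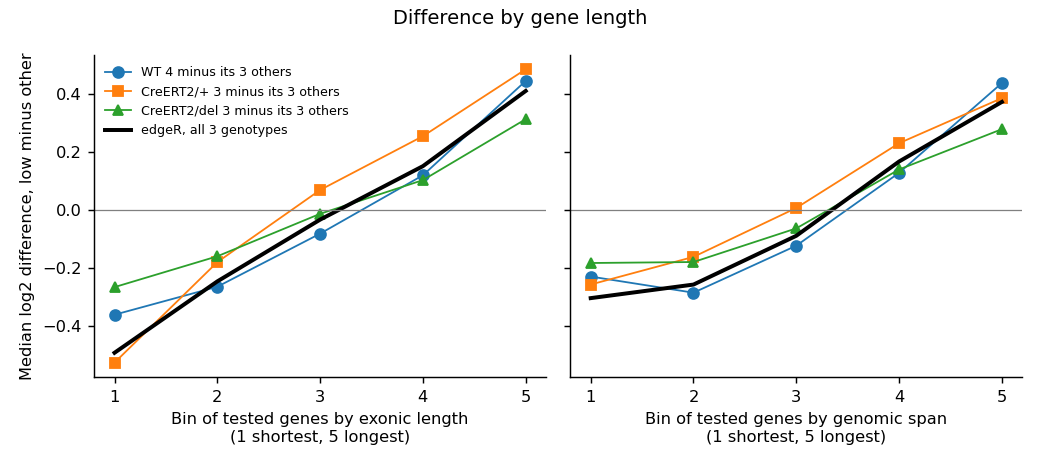
Median log2 difference, low minus other (y axis), by bin of tested genes (x axis) of exonic length on the left and genomic span on the right. Thin lines are each low library against the other 3 of its genotype and the thick line is the edgeR estimate over 3 genotypes, which rises from -0.49 to 0.41 by exonic length.

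Genomic span, introns included, gave a similar but flatter order, from -0.30 in the shortest bin to 0.37 in the longest. Across genes the Spearman correlation with the log2 difference was 0.382 for exonic length, 0.302 for span and -0.055 for the GC content of transcripts; genes share libraries and depth, so these are descriptions. Exonic length still ordered genes of like span: within the longest span bin, the median went from -0.46 for the 78 genes of shortest exonic length to 0.50 for the 1687 of longest. Span ordered genes of long exonic length too, from 0.00 for 109 genes in the next-to-shortest span bin to 0.50 in the longest. GC content had no steady order: the median was highest, 0.31, in the middle bin, and -0.16 and -0.24 in the lowest and highest bins. The same gradient held among protein-coding genes alone, where the shortest bin had a median of -0.59 and the longest 0.44.

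As a check within single libraries, the median log2 CPM of the longest exonic bin exceeded that of the shortest by 3.59, 3.77 and 3.48 in WT 4, CreERT2/+ 3 and CreERT2/del 3. The other 9 libraries lay between 2.73 and 3.29 and the 4 del/+ libraries between 3.08 and 3.24. The low libraries stood above all 13 others.

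Genes for cytosolic ribosomal proteins were lower as a class. Of 81 measured, 80 were called lower and 0 higher, beside 14.6% of all genes called lower, with a median log2 difference of -1.08. Their summed share of counts outside mitochondrial rRNA was 4.79% in WT 4, 3.73% in CreERT2/+ 3 and 6.37% in CreERT2/del 3, and 6.83% to 10.4% in the other 9. The groups did not overlap, and CreERT2/del 3 was the nearest to the rest. The median difference was -1.01 in WT 4, -1.86 in CreERT2/+ 3 and -0.51 in CreERT2/del 3. Rpl15, a large-subunit protein (chr14:19100337-19103905, minus strand, mm9), was at 1012, 1211 and 1305 CPM in WT 1 to 3 and 504 in WT 4. The CreERT2/+ libraries had 1039, 1166 and 1525 CPM against 304 in replicate 3, and in CreERT2/del at 1096, 1169 and 1112 against 680 in replicate 3. Every low library was therefore below all 9 others, and the fitted log2 difference was -1.28 ± 0.22 SE (edgeR adjusted p = 0.00029). Rpl34, Rpl7 and Rps4x fell by 1.31, 1.20 and 1.25 on the log2 scale. Ribosomal protein genes have many processed pseudogenes, and how the authors' counting shared reads among them is not given in the sources used here.

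**Figure D3:**
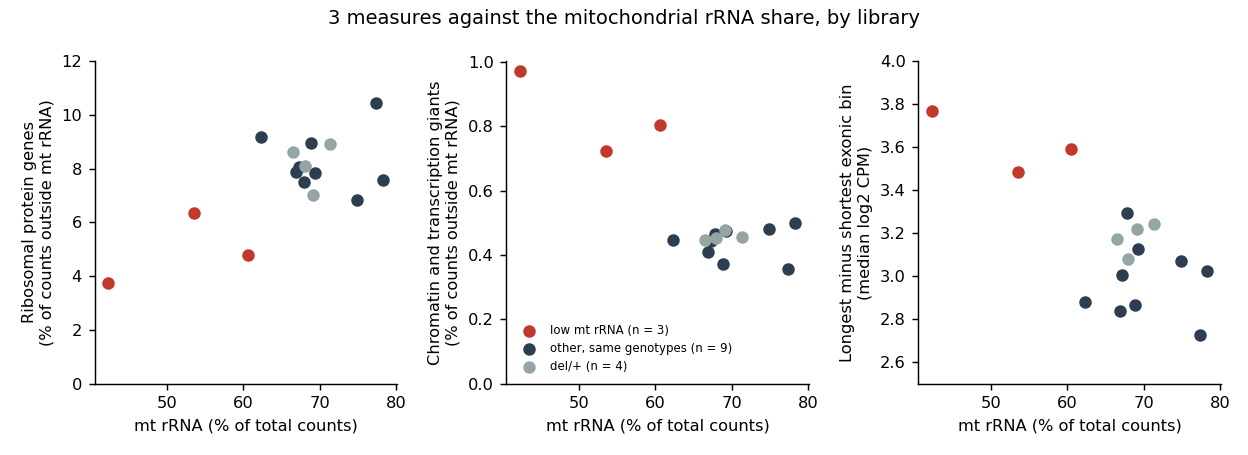
Ribosomal protein share, share of large chromatin and transcription genes (both percent of counts outside mitochondrial rRNA) and longest minus shortest exonic bin (median log2 CPM) on the y axes, against the mitochondrial rRNA share of each library (x axes); the y axis of the last panel does not start at 0. The low libraries lie at 3.73% to 6.37%, 0.722% to 0.971% and 3.48 to 3.77, apart from the other 9 in all 3 panels.

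Ribosomal protein genes are short and abundant, and other genes of that kind were also lower. Among the 389 genes outside the class that were in both the shortest exonic bin and the highest bin of mean CPM, 346 (88.9%) were called lower and 2 higher, with a median of -0.91. The 47 ribosomal protein genes of the same 2 bins were all called lower, with a median of -1.11. Short genes of the 4 lower CPM bins were called lower in 19.2% of 2704 cases, with a median of -0.36. In the middle length bin, 9 of 9 ribosomal protein genes were lower, with a median of -1.15 against -0.03 for the rest of that bin.

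Mitochondrial genes other than the rule genes were lower too, whether encoded in the mitochondrion or in the nucleus. Of 13 proteins encoded by the mitochondrial genome, which also encodes the rule genes, 12 were called lower and 0 higher. Over all genes 14.6% were lower and 15.3% higher. The median of the 13 was -1.11. The other member, mt-Atp6, a subunit of the ATP synthase, was at 932, 472 and 972 CPM in the low libraries and at 840 to 3578 CPM in the others (adjusted p = 0.055). Together the 13 genes took 8.77%, 4.23% and 7.55% of counts outside mitochondrial rRNA in WT 4, CreERT2/+ 3 and CreERT2/del 3, and 9.30% to 15.6% in the other 9. mt-Co1, a catalytic subunit of cytochrome c oxidase, was at 50699, 70700 and 47223 CPM in WT 1 to 3 and 25269 in WT 4. The CreERT2/+ values were 42816, 51676 and 48189 CPM against 10261 in replicate 3. Those of CreERT2/del were 39378, 56765 and 31182 CPM against 20583 in replicate 3. The low libraries did not overlap the others, and the log2 difference was -1.42 ± 0.29 SE (adjusted p = 0.00098).

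Within this class the 3 low libraries differed in size. The class median was -0.56 in WT 4, -2.21 in CreERT2/+ 3 and -0.67 in CreERT2/del 3; CreERT2/+ 3 also had the lowest rRNA share. mt-Nd6, a subunit of complex I, was at 4947, 707 and 2200 CPM in WT 4, CreERT2/+ 3 and CreERT2/del 3, against 2620 to 9758 CPM in the others, so the groups overlapped. mt-Nd1, another complex I subunit, was at 8384, 4018 and 10366 CPM against 13023 to 25724 CPM, with no overlap. Of 22 mitochondrial tRNA genes, 8 passed the filter on low counts. Of these 3 were called lower (mt-Tp, mt-Tl1 and mt-Tv), or 37.5% beside 14.6% of all genes. Counts of such short RNAs depend on fragment size.

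Nuclear genes for oxidative phosphorylation, the respiratory chain and its ATP synthase, were called lower in 70 of 84 cases and higher in 0. Their median was -0.92. Over all genes 14.6% were lower and 15.3% higher. In the shortest exonic bin 47 of 53 members were lower, beside 28% of the other genes of that bin. Ndufb10, a complex I subunit, was at 45.1, 36.4 and 52.7 CPM in WT 4, CreERT2/+ 3 and CreERT2/del 3 and at 80.7 to 104.8 CPM in the others. Its groups did not overlap (log2 difference -1.02 ± 0.17 SE, adjusted p = 0.00023). Proteins of the mitochondrial ribosome were lower in 54 of 75 cases and higher in 0, with a median of -0.70. In the shortest exonic bin 30 of 36 members were lower, beside 28.4% of the other genes of that bin. Mrps33, of the small subunit of that ribosome, was at 32.4, 17.8 and 40.1 CPM against 59.9 to 121.3 CPM. Long members of this class were lower as well: the 6 members in the longest exonic bin had a median of -0.63, with 5 called lower, against 0.41 for the other genes of that bin.

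Short messages of other kinds behaved alike. Replication-dependent histones, whose messages end in a stem-loop in place of a poly(A) tail, were lower in 34 of 55 cases and higher in 0 (median -1.07). Over all genes 14.6% were lower and 15.3% higher. In the shortest exonic bin 30 of 49 histones were lower, beside 28.5% of the other genes of that bin. The low and other libraries did not overlap in only 1 of the 55, beside 2957 of all 15706 genes. Hist1h2be was at 53.6, 49.7 and 104.3 CPM in WT 4, CreERT2/+ 3 and CreERT2/del 3. The WT libraries 1 to 3 were at 91.0, 99.9 and 120.9 CPM and the other CreERT2 libraries at 169.4 to 326.4 CPM, so WT was low throughout. Translation factors with terminal oligopyrimidine messages were lower in 13 of 20 cases (65%), beside 14.6% of all genes. Btf3, Eif3e and Npm1 were among them (-1.09, -1.06 and -1.15). The one that rose was Pabpc1, the cytoplasmic poly(A)-binding protein, with a log2 difference of 0.92 and a longer exonic sequence of 5768 bp.

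Genes of large chromatin and transcription proteins were higher. Of 39 measured, all in the longest exonic bin, 32 were called higher and 0 lower, beside 15.3% of all genes and 37.9% of the other genes of that bin called higher. Their median was 0.67, against 0.40 for those other genes. They took 0.805%, 0.971% and 0.722% of counts outside mitochondrial rRNA in WT 4, CreERT2/+ 3 and CreERT2/del 3 and 0.356% to 0.4995% in the other 9. Crebbp, a histone acetyltransferase (chr16:4084048-4213404, minus strand, mm9), was at 104.9, 178.2 and 103.8 CPM in the low libraries and at 45.9 to 83.6 CPM in the others. Every low library was above every other one (log2 difference 1.15 ± 0.17 SE, adjusted p = 0.00013). Bptf, of the NURF remodelling complex, Ep400, a remodelling ATPase, and Med13l, of the Mediator kinase module, rose by 1.02, 1.14 and 1.09.

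Long noncoding RNAs listed as nuclear did not move as a class. Where they lie in the cell was not measured, and the list includes Gas5, counted below also as a host transcript. Of 14 nuclear long noncoding RNAs measured, from 26 in the list, 3 were higher (21.4%) and 4 lower (28.6%), beside 15.3% and 14.6% of all genes. Their median was -0.13 and became 0.27 without the TMM factor, with 5 higher and 2 lower. On that scale the median of all genes was 0.37, with 4543 of 15706 higher and 876 lower. Malat1, which lies in nuclear speckles, was at 5744, 6078 and 6788 CPM in WT 1 to 3 and 8786 in WT 4. Replicates 1, 2 and 4 of CreERT2/+ were at 10352, 7093 and 8941 CPM against 8621 in replicate 3, and in CreERT2/del at 9624, 7428 and 8596 CPM against 7512. As a share of all counts outside mitochondrial rRNA, without the TMM factor, it was 1.02%, 1.18% and 0.834% in WT 4, CreERT2/+ 3 and CreERT2/del 3 and 0.569% to 0.978% in the others. In CPM it was above its 3 others in WT 4 alone, and the log2 difference was 0.11 ± 0.21 SE (adjusted p = 0.74). Neat1, the scaffold of paraspeckles, was at 6.43, 19.5 and 9.27 CPM in the low libraries and 5.62 to 38.6 CPM in the others (log2 difference -0.19, adjusted p = 0.77). With these standard errors a change of moderate size in either was not detectable.

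The long noncoding RNAs that did pass the test went both ways. Airn, the imprinted RNA that overlaps Igf2r (chr17:12934177-13052988, plus strand, mm9), was at 69.7, 89.2 and 80.0 CPM in WT 1 to 3 and 188.6 in WT 4. Airn in CreERT2/+ was at 80.9, 76.3 and 78.7 CPM against 184.1 in replicate 3, and in CreERT2/del at 66.5, 93.5 and 67.4 CPM against 145.9. The groups were well apart, with a log2 difference of 1.14 ± 0.14 SE (adjusted p = 4.9e-05). Counting by strand is not stated, so its reads and those of genes on the opposite strand cannot be told apart. Meg3, of the imprinted Dlk1 region, rose by 1.13, mostly through CreERT2/+ 3 at 71.1 CPM, and its groups overlapped. Mir17hg, the host of the miR-17 cluster, fell by 1.00 and Gas5, a host of small nucleolar RNAs, fell by 0.95. Gas5 also belongs to the 6 measured host transcripts of small nucleolar RNAs, of which 4 were lower; Snhg1, another, was at 74.7, 69.4 and 95.4 CPM against 134.0 to 246.8 CPM.

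Small nuclear and nucleolar RNAs were mostly unmeasured: of 2646 entries, 174 passed the filter on low counts, 8 of them higher (4.6%) and 7 lower (4.02%), beside 15.3% and 14.6% of all genes. Without the TMM factor 16 were higher and 1 lower, beside 4543 higher and 876 lower of all 15706 genes. Their median of 0.13 turned to -0.29 when genes under a mean of 5 CPM were left out. The abundant entry for 7SK, which sequesters the kinase P-TEFb, on chromosome 9 was at 94.7 CPM in CreERT2/+ 3 against 420.4 to 507.2 in its 3 others, and at 144.7 CPM in CreERT2/del 3 against 240.2 to 668.8. In WT it was at 40.7 CPM in WT 4 and 39.8, 93.8 and 38.2 CPM in the others, so no difference was seen in that genotype. Another 7SK entry on chromosome 17, which lies inside the interval of Airn, was higher in the low libraries (2.65, 5.60 and 4.99 CPM against 0.641 to 1.63 CPM). A U1 entry on chromosome 15 was at 1.61, 0.767 and 1.02 CPM against 0 to 0.184 CPM; it passed the filter on low counts only through the low libraries, so its values are a description.

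Entries that the GENCODE annotation types as antisense or intronic had medians above 0. Of 376 antisense genes 40 were higher (10.6%) and 7 lower (1.86%), both shares below those of all genes (15.3% and 14.6%), with a median of 0.44. Of 25 sense-intronic genes 5 were higher (20%) and 0 lower, with a median of 0.82. Antisense genes took 0.226%, 0.267% and 0.197% of counts outside mitochondrial rRNA in WT 4, CreERT2/+ 3 and CreERT2/del 3 and 0.129% to 0.162% in the other 9, without overlap. Such entries overlap a host gene, and without strand their reads cannot be told apart from those of its introns or exons. Splicing regulators, most of which act in the nucleus as proteins, were split: 15 of 50 were higher and 10 lower, with a median of 0.00. Without the TMM factor 24 were higher and 2 lower, with a median of 0.38. On that scale all 15706 genes had a median of 0.37, with 4543 higher and 876 lower. The calls thus depended on the scaling, while the class median stayed near that of all genes. Son and Srrm2, scaffolds of nuclear speckles, rose by 0.92 and 1.09, Ddx17, an RNA helicase, by 1.14, and Luc7l, a U1-associated factor, by 1.23. Of 341 zinc finger genes 46 were higher and 35 lower, close to the background, with a median of -0.08. Without the TMM factor 88 were higher and 2 lower, with a median of 0.28, below the 0.37 of all genes. Zfp318, Zfp568, Zfp106 and Zfp704 were the members with the lowest p and rose by 0.87 to 1.15.

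The scaling changed the number of calls in these classes more than their direction where the differences were large. Without the TMM factor, 72 of 81 cytosolic ribosomal proteins and 51 of 84 oxidative phosphorylation genes were still lower. So were 25 of 75 mitochondrial ribosomal proteins and 24 of 55 histones, beside 876 of all 15706 genes. On the same scale 35 of 39 large chromatin and transcription genes were higher, beside 4543 of all 15706 genes. Beside the shift of 0.37 in all genes, the ribosomal protein median was then -0.73 and that of the large chromatin genes 1.04.

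**Figure D4:**
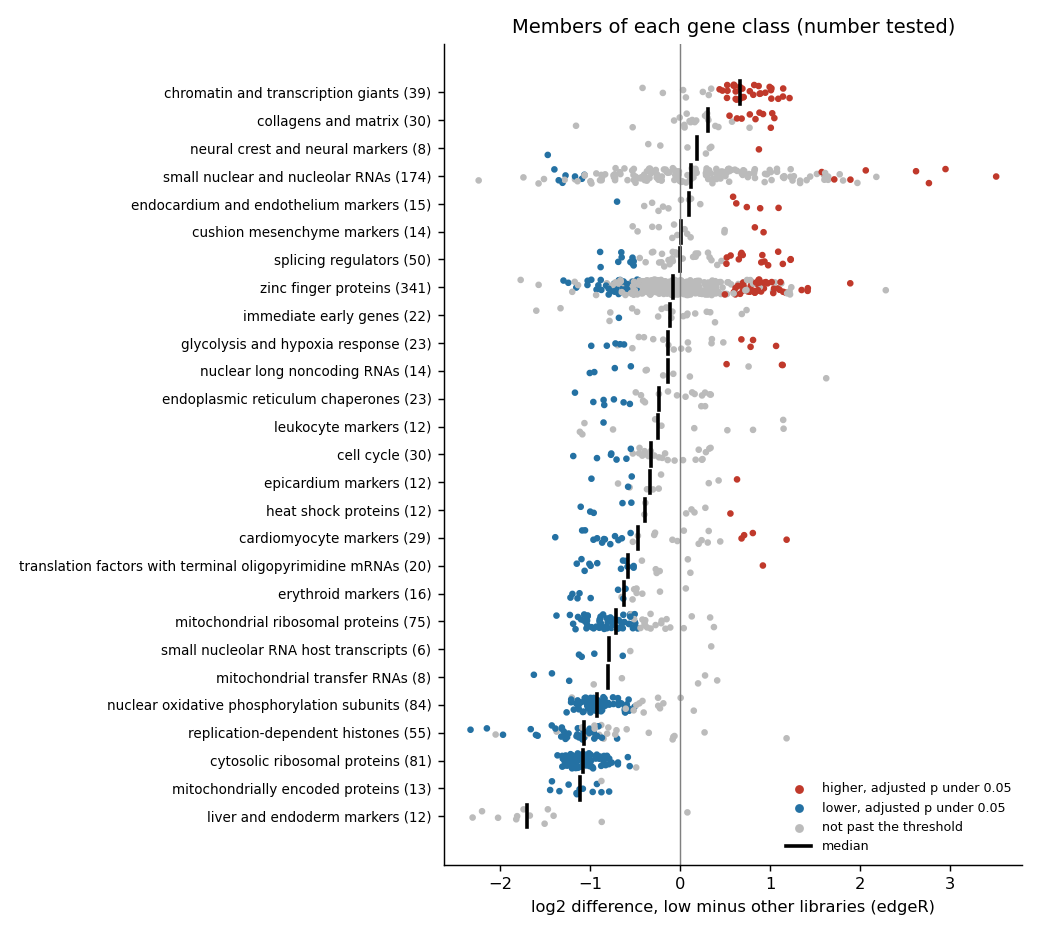
Fitted log2 difference, low minus other libraries (x axis), of every tested member of each gene class (y axis, number tested in parentheses); black bars are medians. Cytosolic ribosomal proteins, proteins encoded in the mitochondrion, oxidative phosphorylation genes and mitochondrial ribosomal proteins lie to the left (medians -1.11 to -0.70), large chromatin genes to the right (0.67), and nuclear long noncoding RNAs on both sides of 0.

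Individual genes with the strongest calls showed the same contrast of lengths. The 8 higher genes were Gsk3b, a kinase of Wnt signalling and glycogen metabolism, Vps13d, a lipid transfer protein, Kif13a, a kinesin motor, Etnk1, an ethanolamine kinase, Dicer1, which cuts microRNA precursors, Fam120a, Herc2, a giant ubiquitin ligase, and Lpgat1, an acyltransferase. They had exonic lengths of 5105 to 24757 bp and rose by 1.18 to 1.42 on the log2 scale. Gsk3b was at 72.8, 81.1 and 68.9 CPM in WT 1 to 3 and 159.2 in WT 4. Its level in CreERT2/+ was 92.6, 68.5 and 67.1 CPM against 253.0 in replicate 3, and in CreERT2/del at 82.1, 70.1 and 71.5 CPM against 158.3. No low library overlapped the rest (log2 difference 1.32 ± 0.15 SE, adjusted p = 3.1e-05). The rule kept only genes whose low library was beyond all 3 others in each genotype, which 15.5% of tested genes met upward and 13.9% downward.

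The 8 lower genes were Nppb, the natriuretic peptide of stretched heart muscle, Tceal8, S100a10, the partner of annexin A2, Dynlt1a, a dynein light chain, Thoc7, of the THO complex of mRNA export, Gpx8, a peroxidase of the endoplasmic reticulum, Pdcl3, a phosducin-like chaperone, and Dpcd. Their exonic lengths were 742 to 2563 bp, and they fell by 1.25 to 1.61. Nppb was at 194.0, 224.4 and 229.1 CPM in WT 1 to 3 and 91.3 in WT 4. In CreERT2/+ it was at 210.6, 201.8 and 224.5 CPM against 66.5 in replicate 3, and in CreERT2/del at 461.7, 326.0 and 386.6 CPM against 163.4. The other CreERT2/del libraries were above those of WT and CreERT2/+, and the low CreERT2/del library was below all of them (log2 difference -1.38 ± 0.17 SE, adjusted p = 4.5e-05).

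**Figure D5:**
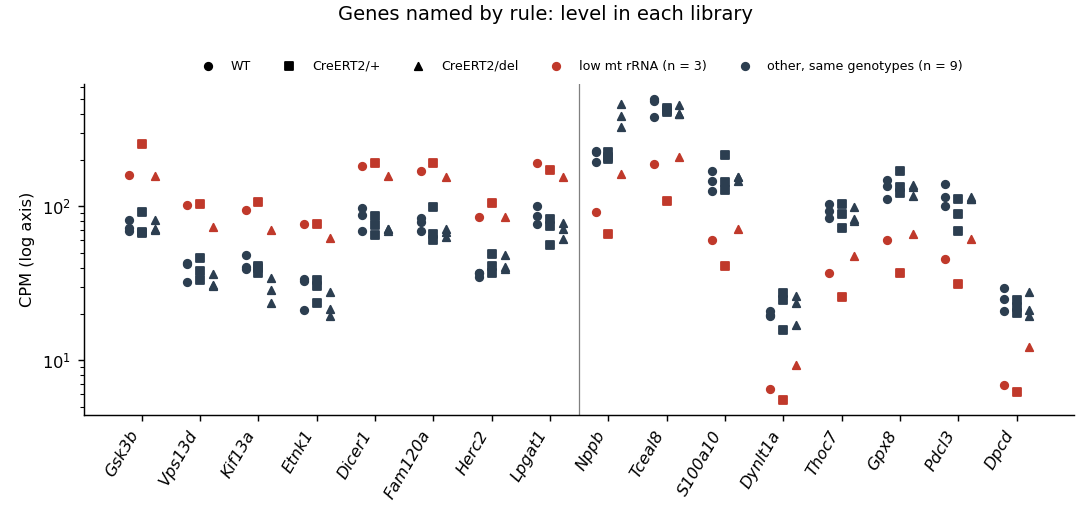
CPM (y axis, log scale) of the 8 higher genes (left) and 8 lower genes (right) in each of 12 libraries, by genotype (marker shape) and set (colour). The 3 low libraries lie above every other library for Gsk3b and below every other library for Nppb.

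Heart markers were split by the same property. Cardiomyocyte markers were present in all 12 libraries. Without the TMM factor they summed to 84640 to 94630 CPM in the low ones and 66150 to 79540 in the others. Ttn, whose CPM with that factor are given below, made up a large part of these sums. The 2 entries for Tnnc1, a troponin, were at 0 throughout. Of 29 measured, 4 were higher (13.8%) and 13 lower (44.8%), beside 15.3% and 14.6% of all genes, with a median of -0.47. Without the TMM factor 9 were higher and 8 lower, beside 4543 and 876 of all 15706 genes. Their median was then -0.11, beside 0.37 for all genes. The 8 markers of the shortest exonic bin had a median of -0.80 and the 8 of the longest 0.31. Atp2a2, the calcium pump of the sarcoplasmic reticulum (5674 bp), was at 956.9, 1413 and 729.2 CPM in WT 4, CreERT2/+ 3 and CreERT2/del 3 and at 320.9 to 683.7 CPM in the others, and rose by 1.18. Ryr2, its release channel (18191 bp), rose by 0.81. Csrp3, a Z-disc protein (932 bp), was at 366.6, 270.1 and 480.4 CPM against 508.2 to 906.3 CPM, and fell by 1.05. Ttn, the giant sarcomere protein, was chosen after its values were seen: it was at 39347, 35126 and 38650 CPM against 23318 to 31200 CPM, with no overlap, but a log2 difference of 0.45 ± 0.21 SE missed the threshold (adjusted p = 0.11).

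Counts for markers of other cells are read against the 15.3% of all genes called higher and 14.6% called lower. Their summed levels are again without the TMM factor. Endocardial and endothelial markers were higher in 5 of 15 cases (33.3%) and lower in 1, and Kdr and Flt1, receptors for vascular endothelial growth factor, rose by 1.095 and 0.89; their summed level was 863 to 1112 CPM in the low libraries and 631 to 809 CPM in the others. Cushion mesenchyme markers were higher in 2 of 14 (14.3%, near that of all genes), Tbx20 and Sox9, and lower in 0. Epicardial markers were higher in 1 of 12 (8.33%, Wt1) and lower in 3 (25%, Krt18, Krt19 and Tcf21). Erythroid markers were lower in 8 of 16 (50%) and higher in 0, the embryonic globins Hba-x, Hbb-bh1 and Hbb-y among them, with a summed 5696 to 10830 CPM against 9141 to 19540 CPM. Hba-x, an embryonic globin, was at 1304, 1617 and 2001 CPM against 2520 to 4309 CPM. In bulk tissue, fewer cells of a type and less RNA per cell cannot be told apart, and the part of blood content in the other differences was not tested.

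Leukocyte markers were lower in 1 of 12 (Lyz2) and higher in 0, at a summed 42.1 to 57.9 CPM against 25.7 to 80.3 CPM. Liver and endoderm markers had no member past the threshold among 12, at 11 to 27.3 CPM against 7.40 to 206.1 CPM, and their median of -1.70 rested on genes such as Afp, at up to 77.4 CPM in the other libraries; Trf and Shh were at 0 in all 12. Neural markers were higher in 1 of 8 (Erbb3) and lower in 1 (Stmn2), at a summed 40.8 to 42.5 CPM against 23.2 to 36.0 CPM, with Neurod1 at 0. The summed levels of these last classes, also without the TMM factor, were small beside those of heart muscle.

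The same 15.3% and 14.6% of all genes stand behind the counts of other gene groups. Immediate early genes were lower in 1 of 22 (Jund) and higher in 0, and heat shock genes were lower in 5 of 12 and higher in 1, with Hspe1 and Hsp90aa1 at -1.102 and -0.996. Endoplasmic reticulum chaperones were lower in 7 of 23 (30.4%) and higher in 0, led by Sec61g at -1.17 and Manf, Ssr2 and Ssr4 behind it. Collagens and other matrix genes, whose messages are long, were higher in 10 of 30 (33.3%) and lower in 0, with Fbn2, Lamc1, Nid1 and Lamb1 at 1.01, 0.92, 1.05 and 0.84. Glycolysis and hypoxia genes were higher in 4 of 23 (17.4%, Hk2 at 1.07) and lower in 5 (21.7%, Tpi1 at -0.98), both shares near those of all genes. Cell cycle genes were lower in 7 of 30 (23.3%) and higher in 0, with Ccne2 and Cdk1 at -1.18 and -0.92. Of 7 measured cytosolic rRNA entries none passed the test. Their log2 differences ran from -0.52 to 0.97, with a median of 0.63. The entry with the lowest p, 5S_rRNA on chromosome 2, was also the lowest, at -0.52. The calls in several of these groups depended on the scaling. Without the TMM factor, endoplasmic reticulum chaperones had 7 members higher and 3 lower, heat shock genes 4 and 3, and cell cycle genes 7 and 2. Glycolysis and hypoxia genes had 6 and 1, immediate early genes 1 and 0, and epicardial markers 3 and 1. On that scale 4543 of all 15706 genes were higher and 876 lower, with a median of 0.37. The medians of these groups, in the same order, were 0.14, -0.02, 0.04, 0.25, 0.24 and 0.03, all below that of all genes.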

How the data were processed

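RNA of 16 mouse heart samples was extracted with Qiazol and miRNeasy columns and amplified into libraries with the Ovation system, per the labels' protocols, which give the molecule as polyA RNA. The submitters' processing notes name TopHat2, featureCounts, edgeR and the build mm9; versions, filters and the use of strand are not given in these sources. The authors deposited raw counts per gene as whole numbers, not expected counts estimated by a model; 52 further per-sample or mean columns were not used. Feature length, deposited by the authors in base pairs, is the length of annotated exons. Start, end and strand stand 1 column away from their headers in the deposited table and were read so. Gene types and GC content came by gene identifier from GENCODE vM21 (15050 of 15706 tested genes matched), without its coordinates.

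The members, lists and rules were chosen with earlier results of these data known. Raw counts of the 12 WT, CreERT2/+ and CreERT2/del libraries were fitted with edgeR 4.0.16 in R 4.3.3 (default filter on low counts, TMM, quasi-likelihood test, genotype plus low set, 8 residual degrees of freedom, threshold 0.05). mt-Rnr1 and mt-Rnr2 were left out of library sizes and of the test. CPM are counts scaled to a library size without them, with the TMM factor. Differences per library used log2(CPM + 0.5) against the mean of the other 3. Length and CPM bins hold equal numbers of tested genes. Named genes were the 8 higher and 8 lower with the lowest adjusted p whose low library lay beyond all 3 others in each genotype, and from each list up to 4 past the threshold (otherwise the one with the lowest p), with the mitochondrially encoded proteins and Tbx5 as values; predicted, sex-linked and small RNA genes were left out of the first part. Malat1, Neat1, Ttn, Xist and Kdm5d were named outside this rule. A gene that the rule names is not reported here. DESeq2 1.42.0 and limma 3.58.1 were alternatives. On simulated counts for 15236 genes with 197 changed, the test recovered 46.9% of 2-fold and 77.8% of 4-fold changes, with 6.11% false among its calls. Depth was 21436305 to 42731841 counts per library.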

Additional observations from a re-analysis of the deposited data

Results flagged for a closer look

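In each genotype of 4 libraries, the gap between the highest or lowest library and its nearest neighbour was divided by the range of the 4, and ratios above the critical value of Dixon's test for 4 values are given here. Chance alone gives about 1 in 20 groups. Of 393 groups examined, 14.5% gave 57 such ratios, 52 of them on a low library. Many of these genes were named because the low library lay beyond the others, so the ratios are a description.

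WT 4 was below its 3 others in the mitochondrial rRNA share (0.837), Dynlt1a (0.889), mt-Tp (0.884) and mt-Nd1 (0.853). It was above them in the Malat1 share of counts (0.87). Among the longer genes, WT 4 was above in Gsk3b (0.865), Vps13d (0.843), Kif13a (0.843), Fam120a (0.849), Herc2 (0.952), Luc7l (0.847), Son (0.949), Zfp318 (0.903), Bptf (0.847), Lamc1 (0.891), Nid1 (0.917), Hk2 (0.888) and Erbb3 (0.933). Among RNA genes it was above in Airn (0.836), U1 on chromosome 15 (0.933) and Scarna3b (0.891).

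CreERT2/+ 3 was above its 3 others in Gsk3b (0.863), Kif13a (0.942), Dicer1 (0.835), Zfp106 (0.892), Bptf (0.939), Med13l (0.855), Tbx5 (0.907), Airn (0.958), 7SK on chromosome 17 (0.876) and U1 on chromosome 15 (0.854). It was below them in Nppb (0.857), Tceal8 (0.936) and Hbb-bh1 (0.854).

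CreERT2/del 3 was above its 3 others in Gsk3b (0.864), Vps13d (0.861), Dicer1 (0.976), Fam120a (0.919), Ddx17 (0.91), Son (0.836), Pabpc1 (0.924), Fbn2 (0.848), Lamc1 (0.833), Atp2a2 (0.914), Wt1 (0.836), 7SK on chromosome 17 (0.959) and U1 on chromosome 15 (0.927). It was below them in S100a10 (0.895), Pdcl3 (0.964), Rpl15 (0.851), Mrps33 (0.945) and Ccnb1 (0.859).

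Libraries outside the low set gave the other 5 ratios. CreERT2/del 2 was below in the Malat1 share (0.836) and above in 5S_rRNA on chromosome 2 (0.875), WT 2 was above in 7SK on chromosome 9 (0.954), and WT 3 and CreERT2/+ 4 were above in Afp, a liver marker (0.898 and 0.909).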

How the results depend on the processing

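No called gene changed direction under any setting run on all 3 genotypes, and DESeq2, limma-voom, other size factors and both filters kept the counts of higher and lower genes within 1.5 times 2396 and 2295. The share as a continuous covariate called 1437 higher and 1426 lower. Without the TMM factor 4543 were higher and 876 lower. Leaving out 1 library in turn gave 1282 to 2399 higher and 992 to 2297 lower genes, the fewest without CreERT2/+ 3. A single low library was also set against the other 3 of its genotype, with the spread taken from the other 9 libraries. That setting called 288 higher and 242 lower genes for WT 4, and 1375 higher and 1733 lower for CreERT2/+ 3. For CreERT2/del 3 it called 0 higher and 0 lower, and limma-voom also called 0. A single low library has no spread of its own and is assumed to vary like the others. These counts are therefore a description, and 0 does not show that CreERT2/del 3 was unchanged.

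The longest minus shortest difference by exonic length was 0.90, and 0.444 with no filter, 1.128 at a mean CPM of at least 5, 0.642 with the continuous covariate and 0.83 to 1.061 with 1 library left out. By span it was 0.675, and 0.493, 0.968 and 0.474 under the same 3 settings, 0.822 with the replicate block, 0.844 among protein-coding genes and 0.646 to 0.803 with 1 library left out. The median of small nuclear and nucleolar RNAs was 0.319 with no filter, -0.292 at a mean CPM of at least 5, 0.283 with the rule genes kept, 0.241 with the replicate block, 0.497 without the TMM factor and 0.0038 to 0.221 with 1 library left out. That of nuclear long noncoding RNAs was 0.266 without the TMM factor and -0.248 to 0.158 with 1 library left out. With protein-coding entries alone it was 1.653, near the highest single member of the class in the main fit (1.625). That setting removes noncoding entries, so its value does not describe the class. Ribosomal proteins ranged from -1.412 to -0.772 and mitochondrially encoded proteins from -1.435 to -0.647 with 1 library left out. The cause of these shifts was not tested.

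Same-numbered libraries of different genotypes had correlations of their deviations from -0.348 to 0.50, 3 of 12 over 0.1. Libraries of other numbers had -0.371 to 0.507. Both highest values joined low libraries to each other, and both lowest joined a low library to one outside the low set. The split itself thus enters these values, so they cannot decide whether replicate numbers pair the libraries. The replicate block gave 2021 higher and 2087 lower genes. Of 2646 small nuclear and nucleolar RNA entries, 174 had enough counts to be tested.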

Other observations

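Within del/+, where no library met the rule, the library with the lowest mitochondrial rRNA share (del/+ 3, 66.5%) had a median log2 difference from its 3 others of 0.29 for ribosomal proteins, 0.18 for the shortest exonic bin and 0.05 for the longest. The del/+ shares spanned only 66.5% to 71.3%, and this is 1 library with no replicate.

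An entry of 57 bp annotated as mmu-mir-689-2 on chromosome 16 took 2.14% to 3.49% of counts outside mitochondrial rRNA in the low libraries and 2.45% to 7.98% in the other 9, and fell by 1.03 on the log2 scale (edgeR adjusted p = 0.015). It was chosen after its values were seen. Genes without a symbol took 0.128% to 0.230% in the low libraries and 0.179% to 0.394% in the others, with overlap.

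Protein-coding genes with 1 exon were called higher in 33 (10.1%) and lower in 71 (21.7%) of 327 cases, with a median of -0.25 and a median exonic length of 2013 bp. Those with more exons were called higher in 16.4% and lower in 15.9%, with a median of -0.01 and a median exonic length of 3890 bp; over all genes the shares were 15.3% and 14.6%.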
